A study of Mus musculus with 4 samples.

Results

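The genes described here are 46 genes of the interferon response and of nucleic acid sensing, out of 28096 gene identifiers measured in cultured mouse alveolar type II cells. They were chosen by name, for what they are known to do and not by a threshold on the values. All 46 were found in the deposited tables, 44 under the symbol in use in the name table and 2 (Mb21d1, now Cgas, and Tmem173, now Sting1) through a newer name. They fall into 8 roles: 6 sensors, 2 adaptors, 5 interferon regulatory factors, 4 receptor chains, 3 kinases and STAT factors, 19 antiviral induced genes, 4 induced GTPases and 3 negative regulators.

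The data are RNA sequencing of polyadenylated RNA from 4 libraries that share 1 genotype label. Type II cells line the alveolus and secrete surfactant; here they were sorted from mouse lung as EpCAM+ cells that lacked CD24, CD45, CD31 and Pdpn. After sorting they were cultured inside matrigel, a basement membrane gel, under the bronchial epithelial medium BEGM. For 4 days the medium held 100 nM 4-hydroxytamoxifen (4OHT), and for 1 further day it did not. The design text lists 3 genotypes with 4 mice each: RosaCreERT2 without a change at an Etv gene, RosaCreERT2 with Etv5 loxp/loxp, and RosaCreERT2 with Etv4 KO/KO and Etv5 loxp/loxp. All of them also share an allele that is not reported here. The label calls Etv wild type (wt), which by its wording fits only RosaCreERT2 without a change at an Etv gene. The labels do not themselves state which of the 3 it stands for. RosaCreERT2 is a tamoxifen-activated Cre recombinase expressed from a locus that is active in most cell types, so it is not restricted to type II cells. Age and sex of the mice are not given in the labels, and the labels do not tie a library to a mouse. The spread between libraries may therefore be in part technical. No untreated or control group was analysed here, so the results below are levels, differences between genes within a library, and spread between the 4 libraries.

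Total counts ranged from 12133251 to 13591876 reads over the 4 libraries, and the 46 genes took 9725 to 13479 of them in each. Libraries 1 to 4 are names given in accession order. The type II label was checked against 9 markers, all of which had a mean above 50 nRPKM, led by Sftpc at 10006 ± 3649 (SD, n = 4). All 9 type II markers were lowest in library 1, where their summed level was 9161 nRPKM against 15173, 20431 and 15414 in libraries 2 to 4. Marker genes of other cell types were also counted: summed levels over the libraries were 23.2 to 84.6 nRPKM for 13 myeloid genes, 150 to 1059 for 4 club cell genes, 14.5 to 107 for 3 basal cell genes and 5.18 to 28.5 for 6 mesenchymal genes. The 7 endothelial genes summed to 0.196 to 0.823 nRPKM and the 10 lymphoid and plasmacytoid genes to 0.634 to 1.34, with Cd3g, Ncr1 and Nkg7 among those at 0 reads in every library.

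Interferons are secreted proteins through which a cell that has met foreign or misplaced nucleic acid warns itself and its neighbours. Sensors in the cytosol bind the RNA or DNA, adaptors on mitochondria or the endoplasmic reticulum pass the signal on, and interferon regulatory factors switch on the interferon genes. The interferon then binds a receptor made of a pair of chains, whose kinases activate STAT factors that enter the nucleus and switch on a large set of antiviral genes and, with them, inhibitors that end the response. Type II cells are a target of inhaled respiratory viruses, and the response is known to protect the alveolus.

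The DNA element that ties many of the induced genes together is the interferon-stimulated response element (ISRE), bound by interferon regulatory factors and by the complex of STAT factors with Irf9. Its core was searched as a pair of GAAA motifs with any 2 bases between them, on both strands, in RefSeq promoters of the GRCm38.p6 build, which cover 250 bases before to 50 after each gene's start. A promoter was found for 38 of the 46 genes. The core stood in 18 of these 38 genes (47.4%), against 3.99% of all 27025 genes with a promoter in that table. By role it stood in 3 of 4 sensors (Ddx58, Ifih1 and Eif2ak2), in 0 of 1 adaptor, in 1 of 5 regulatory factors (Irf2), in 0 of 4 receptor chains, in 1 of 3 kinases and STAT factors (Stat2), in 8 of 15 antiviral induced genes, in 4 of 4 induced GTPases and in 1 of 2 negative regulators (Socs1). The element bound by STAT dimers, searched as TTCNNNGAA on both strands, stood in 12 of 38 genes (31.6%) against 9.55% of all genes. The letters of the motifs are a description of these windows and do not show that a factor bound there in these cells.

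The windows printed here were chosen because they carry the element in genes whose levels are compared below: 4 antiviral genes at low levels with their highest value in library 1 (Isg15, Ifit1, Ifit3 and Rsad2) and 2 induced genes at higher levels with little difference between libraries 1, 2 and 3 (Bst2 and Irgm1). Each shows the 160 bases before the gene's start, 5′ to 3′ on the gene's strand, from RefSeq GRCm38.p6, with the matches to the core in capitals. Positions are those of the 5′-most base of a match, with -1 the base just before the start. Isg15 lies on the minus strand at chr4:156200819-156200978 and has overlapping matches at -78, -72 and -66. Ifit1 lies on the plus strand at chr19:34640729-34640888, with matches at -104 and -85. Ifit3 lies on the plus strand at chr19:34583369-34583528, with matches at -156 and -122. Rsad2 lies on the minus strand at chr12:26456453-26456612, with a match at -120. Bst2 lies on the minus strand at chr8:71537473-71537632, with overlapping matches at -130 and -124. Irgm1 lies on the minus strand at chr11:48871421-48871580, with overlapping matches at -30 and -24.
Isg15: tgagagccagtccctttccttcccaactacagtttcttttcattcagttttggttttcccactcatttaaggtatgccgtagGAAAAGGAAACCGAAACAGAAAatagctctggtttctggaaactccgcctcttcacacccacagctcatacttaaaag
Ifit1: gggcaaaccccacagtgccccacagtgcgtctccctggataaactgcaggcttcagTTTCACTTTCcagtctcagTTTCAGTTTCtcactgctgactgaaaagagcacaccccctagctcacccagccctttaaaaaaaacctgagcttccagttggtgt
Ifit3: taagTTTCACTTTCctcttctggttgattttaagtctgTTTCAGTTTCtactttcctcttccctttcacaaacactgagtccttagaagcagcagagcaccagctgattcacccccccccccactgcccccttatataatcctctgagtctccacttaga
Rsad2: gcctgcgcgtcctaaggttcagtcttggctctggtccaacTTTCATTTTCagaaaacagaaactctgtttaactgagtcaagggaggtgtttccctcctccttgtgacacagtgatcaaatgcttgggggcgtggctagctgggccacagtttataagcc
Bst2: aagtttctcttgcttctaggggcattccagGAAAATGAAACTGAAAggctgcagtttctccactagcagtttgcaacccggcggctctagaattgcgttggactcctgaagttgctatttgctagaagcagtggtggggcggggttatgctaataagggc
Irgm1: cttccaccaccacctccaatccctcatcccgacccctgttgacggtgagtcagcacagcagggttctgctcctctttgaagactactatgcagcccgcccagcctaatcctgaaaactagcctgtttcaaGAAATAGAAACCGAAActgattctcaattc

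Interferon receptors, their kinases, both adaptors, 4 regulatory factors and 3 sensors were expressed in all 4 libraries, whereas most antiviral induced genes were low. Levels are given as nRPKM, the deposited reads per gene corrected for gene length and for the size of the library, which allows genes to be compared with each other. Taking a mean of at least 1 nRPKM as expressed, 25 of the 46 genes (54.3%) passed, against 42.4% of all 28096 identifiers, and each of the 25 was also at or above 1 in every library. The median gene of the 46 had a mean of 2.30 nRPKM, against 0.345 over all identifiers. By role, all 4 receptor chains, all 3 kinases and STAT factors, both adaptors and 4 of 5 regulatory factors passed, but 3 of 6 sensors, 2 of 4 induced GTPases, 1 of 3 negative regulators and 6 of 19 antiviral induced genes did. The antiviral induced genes had a median of 0.614 nRPKM. Of the 46 genes, 45 had at least 1 read in every library. Because these are bulk libraries, a low level in all cells and a higher level in a few of them cannot be told apart.

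**Figure D1:**
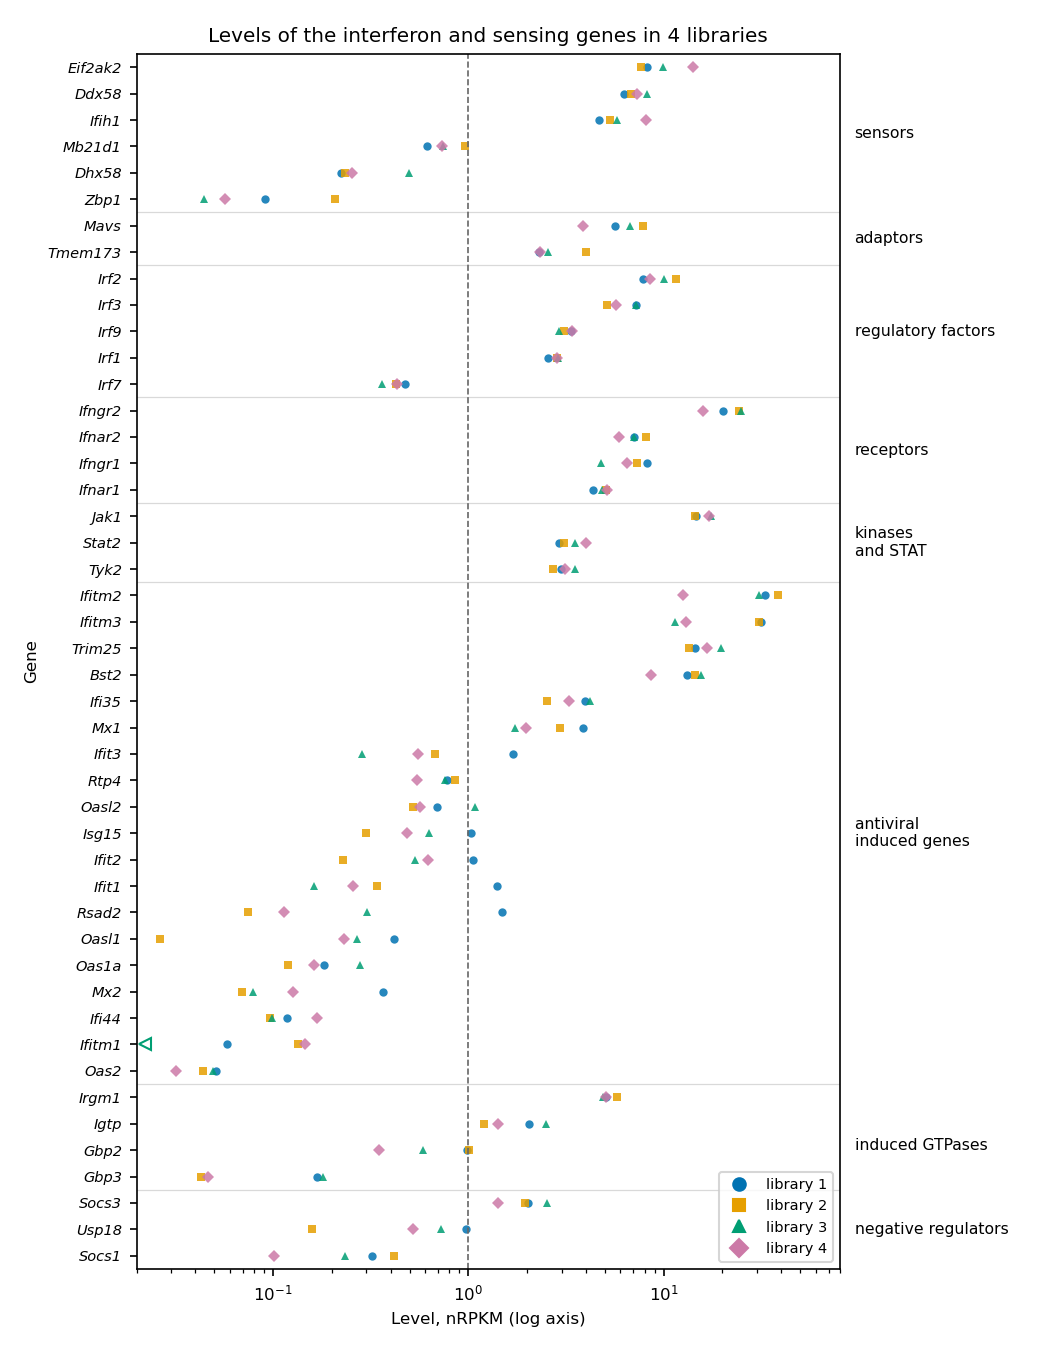
The level of each of the 46 genes in nRPKM (horizontal log axis) in libraries 1 to 4 (symbols), grouped by role, with a dashed line at 1 nRPKM; the open triangle at the left edge marks 0 reads (Ifitm1 in library 3). Receptors, kinases, adaptors and most regulatory factors sit right of the line in all 4 libraries, while 13 of 19 antiviral induced genes have a mean left of it, several with library 1 farthest right.

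Among the sensors, 3 were well expressed and 3 were near or below 1 nRPKM. Eif2ak2 (Entrez 19106), the kinase PKR that halts translation when it binds double-stranded RNA, was the highest at 8.24, 7.62, 9.92 and 14.2 nRPKM in libraries 1 to 4 (9.99 ± 2.96, SD, n = 4). Library 4 stood highest for it, and the lowest library was still above 7.5. Ddx58 (Entrez 230073), the helicase RIG-I that binds short RNA with a triphosphate end, had 6.29, 6.83, 8.17 and 7.31 nRPKM (7.15 ± 0.799). Ifih1 (Entrez 71586), the helicase MDA5 that binds long double-stranded RNA, had 4.68, 5.32, 5.78 and 8.15 nRPKM (5.98 ± 1.52). Both helicases were thus within a narrow range, with library 1 lowest for each. Mb21d1 (Entrez 214763), the enzyme cGAS that turns cytosolic DNA into a cyclic dinucleotide signal, was lower, at 0.613, 0.958, 0.740 and 0.736 nRPKM (0.762 ± 0.143) from 48 to 68 reads per library. Dhx58 (Entrez 80861), the helicase LGP2 that modulates the other RNA helicases, had 0.224, 0.234, 0.495 and 0.254 nRPKM from 10 to 25 reads. Zbp1 (Entrez 58203), a sensor of Z-form nucleic acid that can trigger cell death, had 0.0908, 0.208, 0.0442 and 0.0568 nRPKM. Its 2 to 8 reads per library are at or near the 3 reads that a count of 0 allows, so no difference between libraries can be read from it.

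Ddx58 and Ifih1 were compared within each library on the scale of log2(nRPKM + 1). The difference of Ddx58 minus Ifih1 was 0.36, 0.31, 0.44 and -0.14 in libraries 1 to 4, with a mean of 0.24 ± 0.26 (SD). It was positive in 3 of 4 libraries and no larger than its own spread, with p = 0.25 in a two-sided exact permutation test that flips the signs of the 4 differences. This was 1 of 5 gene pairs compared in this way, and with 4 libraries the smallest p such a test can give is 0.13, so none of the 5 could reach 0.05.

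Both adaptors were expressed, the one for RNA above the one for DNA. Mavs (Entrez 228607), the mitochondrial adaptor of the RNA helicases, had 5.61, 7.88, 6.71 and 3.88 nRPKM (6.02 ± 1.70, n = 4). Tmem173 (Entrez 72512), the adaptor STING that responds to the product of cGAS, had 2.30, 3.99, 2.57 and 2.32 nRPKM (2.795 ± 0.805). Library 2 was highest for both, and for Tmem173 it stood apart from the other libraries. Within a library, Mavs was 2.17 ± 0.429 times as high as Tmem173, and the difference of log2(nRPKM + 1) was 1.00, 0.83, 1.11 and 0.56 (0.88 ± 0.24). It was positive in 4 of 4 libraries and larger than its spread, with the smallest p the exact sign-flip permutation test can give (0.13, adjusted over the 5 pairs 0.156).

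Of the regulatory factors, 4 were expressed and Irf7 was low. Irf2 (Entrez 16363), which binds the same elements as Irf1 and mostly represses them, was the highest at 7.88, 11.6, 9.997 and 8.52 nRPKM (9.50 ± 1.65, n = 4). Irf3 (Entrez 54131), the factor that sensors activate first, had 7.24, 5.12, 7.24 and 5.69 nRPKM (6.32 ± 1.08). Irf9 (Entrez 16391), the DNA-binding partner of the STAT factors, had 3.34, 3.08, 2.91 and 3.38 nRPKM (3.18 ± 0.220). Of these, Irf9 was the most even, and the order of Irf2 and Irf3 above Irf9 held in each library. Irf1 (Entrez 16362), an activator known from the response to interferon gamma, was as even, at 2.55, 2.85, 2.89 and 2.83 nRPKM (2.78 ± 0.152). Irf7 (Entrez 54123), the factor that is itself induced by interferon and amplifies it, had only 0.475, 0.424, 0.360 and 0.429 nRPKM (0.422 ± 0.0474) from 13 to 18 reads per library. Irf3 minus Irf7 on the log2(nRPKM + 1) scale was 2.48, 2.10, 2.60 and 2.23 (2.35 ± 0.23), positive in 4 of 4 libraries, again with p = 0.13 in the exact sign-flip permutation test (adjusted 0.156). In nRPKM, Irf3 was 15.2 ± 3.56 times as high as Irf7 within a library.

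All 4 chains of the receptors for type I and type II interferon were expressed, with the second chain of the interferon gamma receptor the highest. Ifnar1 (Entrez 15975), a chain of the type I interferon receptor, had 4.34, 5.10, 4.86 and 5.14 nRPKM (4.86 ± 0.367, n = 4). Ifnar2 (Entrez 15976), the chain that binds type I interferon more tightly, had 7.05, 8.09, 7.04 and 5.91 nRPKM (7.02 ± 0.889). Every Ifnar2 value was above every Ifnar1 value. Ifngr1 (Entrez 15979), the ligand-binding chain of the interferon gamma receptor, had 8.23, 7.30, 4.80 and 6.52 nRPKM (6.71 ± 1.45). Ifngr2 (Entrez 15980), its signalling chain, had 20.1, 24.4, 24.8 and 15.9 nRPKM (21.3 ± 4.19), and its lowest library was above the highest of Ifngr1.

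On the log2(nRPKM + 1) scale, Ifngr1 minus Ifngr2 was -1.19, -1.61, -2.15 and -1.16 in libraries 1 to 4 (-1.53 ± 0.46), negative in 4 of 4. Ifnar1 minus Ifnar2 was -0.59, -0.58, -0.46 and -0.17 (-0.45 ± 0.19), also negative in 4 of 4. Each gave the smallest p the two-sided exact sign-flip permutation test allows (0.13, adjusted 0.156). The direction for the type I chains depends on the length correction: as log2(CPM + 1), with no correction for gene length, Ifnar1 minus Ifnar2 was 0.60. Of the 50-base words of the Ifnar2 transcript, 8.87% occur in another gene model, mainly one that overlaps it on the same strand. How reads in that overlap were assigned is not given in the sources used here, so the Ifnar2 level is less certain.

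**Figure D2:**
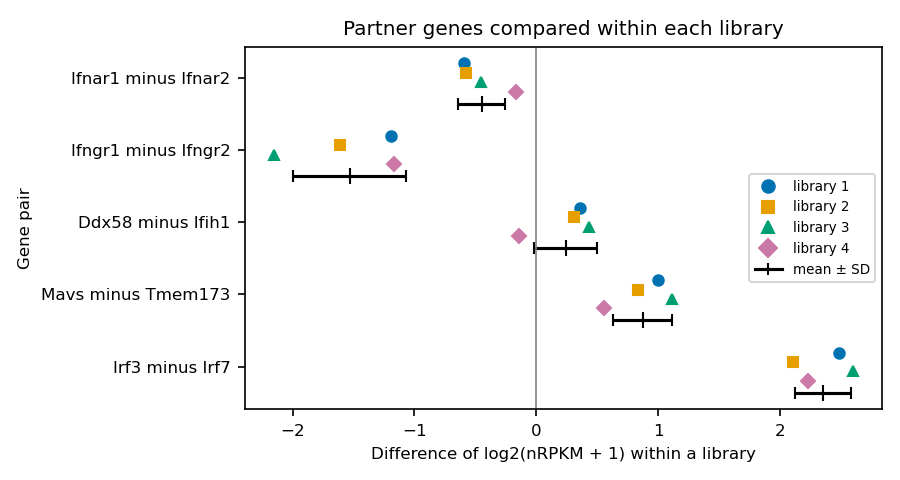
The difference of log2(nRPKM + 1) between partner genes within each library (horizontal axis) for 5 pairs (rows); symbols are libraries 1 to 4 and the black bar is the mean ± SD over the 4. Mavs over Tmem173 and Irf3 over Irf7 are right of 0 in 4 of 4 libraries, both receptor pairs are left of 0 in 4 of 4, and Ddx58 minus Ifih1 is left of 0 in library 4.

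The kinases and the STAT factor that carry the signal from the receptor were expressed, and for each the highest library was less than 1.5 times the lowest. Jak1 (Entrez 16451), the kinase bound to receptors of both interferon types, had 14.6, 14.5, 17.4 and 17.0 nRPKM (15.9 ± 1.57, n = 4). Tyk2 (Entrez 54721), its partner at the type I receptor, had 3.00, 2.73, 3.54 and 3.12 nRPKM (3.10 ± 0.337), below Jak1 in every library. Stat2 (Entrez 20847), which is activated after type I interferon, had 2.92, 3.10, 3.50 and 3.99 nRPKM (3.38 ± 0.474). Of the other receptor chains, kinases and STAT factors of the pathway, all 5 of 5 were expressed. The 3 highest were Stat3 at 17.1 ± 3.08 nRPKM, a STAT factor shared with many cytokines, Jak2 at 11.3 ± 1.06, the partner kinase at the interferon gamma receptor, and Il10rb at 7.23 ± 0.628, a chain of the receptor for interferon lambda. Ifnlr1, the specific chain of that receptor, picked after its values were seen, had 4.10 ± 0.512 nRPKM.

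Interferon transcripts themselves were almost absent from the counts. Of 21 interferon genes, 16 (among them Ifnb1 and Ifng) had 0 reads in all 4 libraries, which allows up to 3 reads each, or 0.221 to 0.247 CPM. Ifna13, Ifnab, Ifne and Ifnl2 each had 1 read, in a single library. Ifnk, an interferon of epithelia first described in skin, was the only one with reads in every library, at 0.658, 1.24, 0.524 and 1.87 nRPKM (1.07 ± 0.615, SD, n = 4) from 9 to 25 reads. Interferon alpha genes share part of their sequence, from 6.45% of the 50-base words of Ifna4 to 67.4% of those of Ifna1, so counting only unique reads can miss some of their transcripts.

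The antiviral induced genes covered a wide range, with 6 of 19 at or above 1 nRPKM and 13 below it. The highest were a pair of membrane proteins that keep viruses from fusing with the cell. Ifitm2 (Entrez 80876) had 32.9, 38.5, 30.7 and 12.5 nRPKM (28.7 ± 11.2, n = 4), with library 4 lowest. Ifitm3 (Entrez 66141) had 31.5, 30.9, 11.4 and 13.1 nRPKM (21.7 ± 10.98), with libraries 1 and 2 more than 2 times as high as libraries 3 and 4. These 2 genes and Mx1 had the largest spread of log2(nRPKM + 1) among the expressed genes of the 46, with SDs of 0.70, 0.75 and 0.38. Ifitm2 is uncertain in level, since 48.5% of the 50-base words of its transcript occur in another gene model, and for Ifitm3 the share was 10.02%.

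Another 3 antiviral genes were expressed, with less spread. Trim25 (Entrez 217069), the ubiquitin ligase that activates RIG-I, had 14.4, 13.5, 19.6 and 16.7 nRPKM (16.1 ± 2.70). Bst2 (Entrez 69550), tetherin, which holds budding virus at the cell surface, had 13.2, 14.4, 15.5 and 8.62 nRPKM (12.9 ± 3.04), with library 4 lowest. Ifi35 (Entrez 70110), an interferon-induced leucine zipper protein, had 3.97, 2.53, 4.21 and 3.29 nRPKM (3.50 ± 0.757). An opposite-strand gene model covers 16.8% of its exon bases, and no strand setting is given in the sources used here, so its reads may include that gene's.

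Mx1 (Entrez 17857), a GTPase that blocks influenza virus, was the last expressed gene of this role, at 3.87, 2.94, 1.74 and 1.98 nRPKM (2.63 ± 0.978) from 213, 141, 98 and 87 reads. Library 1 was highest and library 3 lowest for it. Below 1 nRPKM, the highest mean was that of Ifit3 (Entrez 15959), one of the proteins that bind foreign RNA, with 1.69, 0.677, 0.287 and 0.553 nRPKM (0.803 ± 0.616) from 69, 24, 12 and 18 reads. Library 1 was highest here too, and the mean without it was 0.505. Its level is uncertain because 51.2% of the 50-base words of its transcript occur in another gene, mainly its copy Ifit3b. Rtp4 (Entrez 67775), a receptor transporter protein that inhibits viral replication, had 0.780, 0.859, 0.759 and 0.546 nRPKM (0.736 ± 0.134), with no library apart. Of its 50-base words, 13.6% occur in another gene model. The other 11 antiviral genes had means from 0.0439 (Oas2) to 0.614 nRPKM (Isg15), and Ifitm1 and Oas2 had 0 to 2 and 2 to 4 reads per library, too few for a comparison. Oas1a shares 57.6% of its 50-base words with another gene, mainly Oas1g, so its level of 0.119 to 0.278 nRPKM is uncertain.

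Of the 13 antiviral genes with a mean below 1 nRPKM, 8 had their highest value in library 1 and the other 5 (Oas1a, Oasl2, Rtp4, Ifi44 and Ifitm1) in another library. The 8 include Oas2, a near tie with 4 reads in library 1 and 4 in library 3. The genes with the largest excess in library 1 were picked after their values were seen, and they are given as values only. Rsad2 (Entrez 58185), viperin, an enzyme that makes a chain-terminating nucleotide, had 1.49, 0.0744, 0.303 and 0.113 nRPKM from 115, 5, 24 and 7 reads (0.495 ± 0.671, n = 4). Ifit1 (Entrez 15957), which binds viral RNA caps, had 1.39, 0.342, 0.163 and 0.256 nRPKM from 75, 16, 9 and 11 reads (0.539 ± 0.575). In each, library 1 was more than 4 times as high as the next library, and without library 1 the mean was 0.164 nRPKM for Rsad2 and 0.253 for Ifit1. Ifit2 (Entrez 15958), of the same family, had 1.06, 0.228, 0.532 and 0.621 nRPKM from 85, 16, 44 and 40 reads. Isg15 (Entrez 100038882), a ubiquitin-like modifier, had 1.04, 0.298, 0.632 and 0.487 nRPKM from 16, 4, 10 and 6 reads. Library 1 was the highest for both and library 2 the lowest. Oasl1 (18, 1, 12 and 8 reads) and Mx2 (18, 3, 4 and 5 reads) were also highest in library 1, from few reads.

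In all, 10 of the 19 antiviral induced genes (52.6%) had their highest value in library 1 (Ifit1, Ifit2, Ifit3, Isg15, Oas2, Oasl1, Rsad2, Mx1, Mx2 and Ifitm3) and 0 had their lowest there. Among these 10, Oas2 and Ifitm3 were near ties. Oas2 had 4 reads in library 1 and 4 in library 3, and Ifitm3 had 31.5 nRPKM in library 1 and 30.9 in library 2. Over the 20579 genes with a read, 26.5% were highest in library 1 and 29.7% were lowest there. As many of the 19, 10 (52.6%), were lowest in library 2, against 26.2% of all genes with a read. Of the 16 with at least 10 reads in some library, 9 were highest in library 1. Scaled to total counts instead, as CPM, 12 of 19 were. The share of all genes was not counted for either setting, so neither count can be set against the 26.5%. Of the 8 antiviral genes with an ISRE core in the promoter window, 5 were highest in library 1, of the 7 with a window but no core, 2 were, and of the 4 with no window in the table, 3 were. Over all 46 genes it was 5 of 18 with the core, 4 of 20 without it and 4 of 8 with no window. These counts describe 4 libraries, and genes of 1 pathway are not independent of each other.

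**Figure D3:**
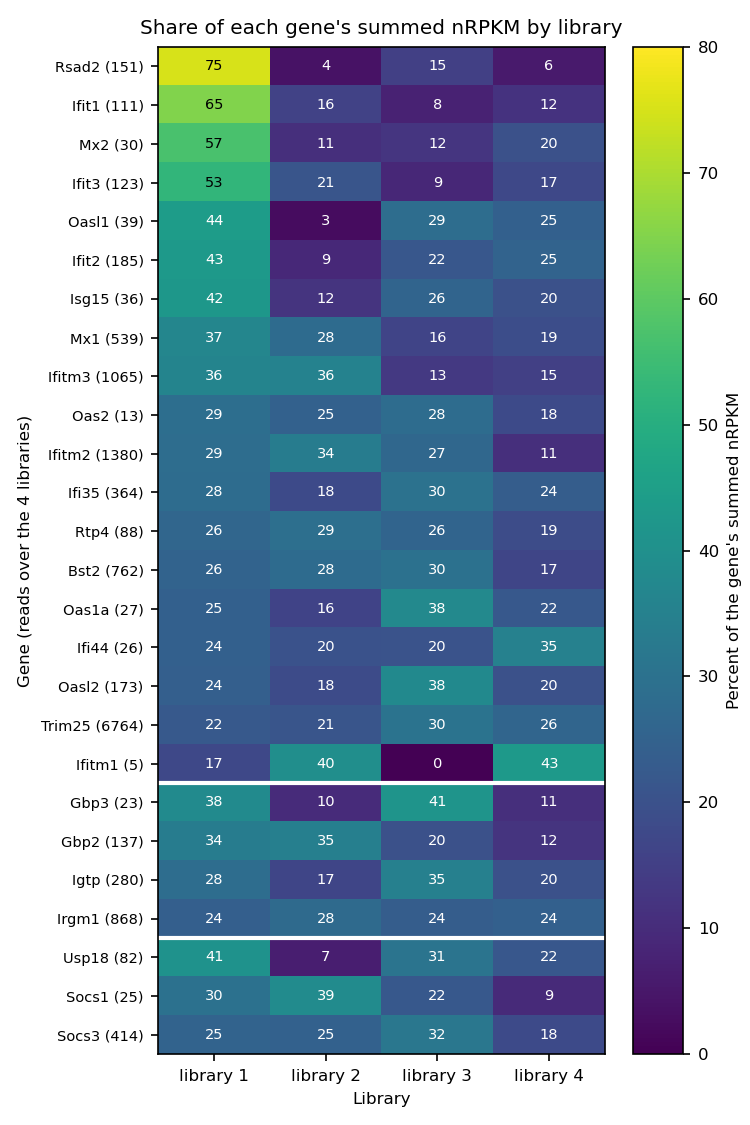
The share of each gene's summed nRPKM that came from each library (columns, percent, colour and printed number) for the antiviral induced genes, induced GTPases and negative regulators (rows, separated by white lines), with the reads over the 4 libraries beside each name. An even gene would show 25 in each column; Rsad2 and Ifit1 show 75 and 65 in library 1, while Trim25 and Irgm1 lie between 21 and 30 in every library.

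The summed level of the 13 antiviral genes with a mean below 1 nRPKM was 9.33, 3.49, 4.53 and 4.01 nRPKM in libraries 1 to 4. Library 1 was thus more than 2 times as high as any other, and the other 3 lay close together. Ifitm2 and Ifitm3 together followed another order, at 64.3, 69.5, 42.1 and 25.6 nRPKM. Markers of other cells differed between the libraries as well. The 13 myeloid markers summed to 84.6, 71.96, 31.2 and 23.2 nRPKM, with Cd68, the highest of them, at 35.3, 25.3, 15.6 and 10.5. Of the 13, 6 were highest in library 1, 6 in library 2 and 1 in library 3. S100a8, a neutrophil gene, had 39, 10, 1 and 0 reads, Tyrobp had 10.9, 8.81, 2.43 and 1.94 nRPKM, and Ptprc, the gene of the sorted-out CD45, had 0.381, 0.696, 0.245 and 0.368 nRPKM. The 3 basal cell markers summed to 107, 63.3, 14.5 and 31.2 nRPKM and the 6 mesenchymal ones to 28.5, 17.2, 5.18 and 12.2, with Dcn, the highest mesenchymal gene, at 14.1, 4.41, 0.962 and 2.56. The 7 endothelial markers summed to 0.823, 0.196, 0.197 and 0.506 nRPKM. Library 1 was thus the highest for the low antiviral genes and for the myeloid, basal, mesenchymal and endothelial sums. The lymphoid and plasmacytoid sum was also highest there, at 1.34 nRPKM, mostly from Bst1. The club cell markers went another way. All 4 of them were highest in library 2, and they summed to 316, 1059, 150 and 280 nRPKM in libraries 1 to 4. The defining markers of T cells, B cells and natural killer cells were at 0 or within 3 reads in every library, and Siglech, a marker of plasmacytoid dendritic cells, had 1 read in library 2 and 0 in the others. The part of other cell types in these levels was not tested.

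**Figure D4:**
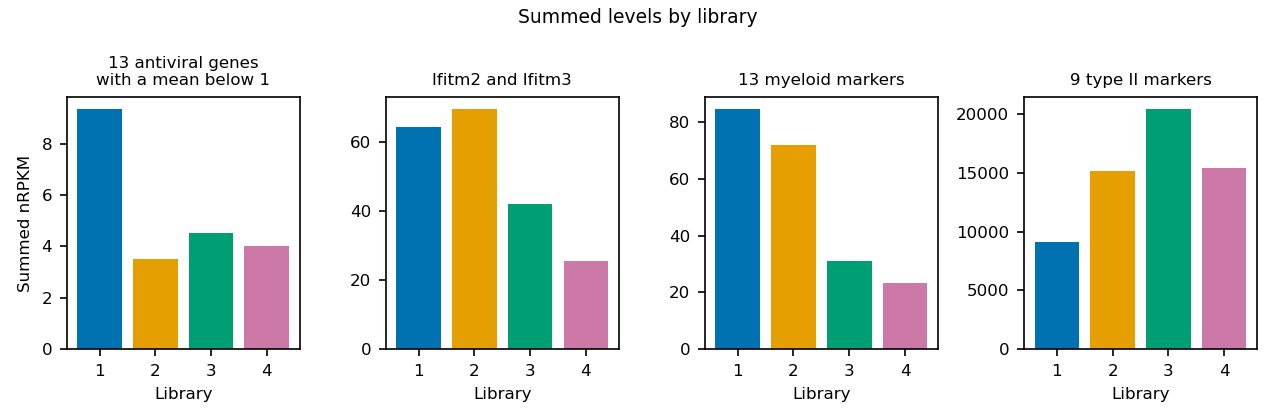
Summed nRPKM by library (bars from 0) for the 13 antiviral genes with a mean below 1, for Ifitm2 with Ifitm3, for 13 myeloid markers and for 9 type II markers, each panel with its own linear axis. The first panel is high in library 1 (9.33) and lower in the rest, the second panel and the myeloid markers are high in libraries 1 and 2, and the type II markers are lowest in library 1 (9161).

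The induced GTPases, which attack the vacuoles of intracellular pathogens and are known targets of interferon gamma, all carried the ISRE core but differed in level. Irgm1 (Entrez 15944) was the highest and very even, at 5.04, 5.74, 4.89 and 5.07 nRPKM (5.19 ± 0.379, n = 4). Igtp (Entrez 16145) had 2.04, 1.197, 2.50 and 1.43 nRPKM (1.79 ± 0.592), with 12.3% of its 50-base words shared with another gene, mainly Irgm2. Gbp2 (Entrez 14469) had 0.979, 1.01, 0.584 and 0.350 nRPKM (0.731 ± 0.319), so libraries 1 and 2 were its higher ones, as for Ifitm3. Gbp3 (Entrez 55932) had 0.167, 0.0427, 0.181 and 0.0465 nRPKM from 23 reads in all, and was the lowest of this role in every library.

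Of the inhibitors that the response induces to end itself, Socs3 was expressed and the other pair was low. Socs3 (Entrez 12702), which blocks receptor kinases after many cytokines, had 2.01, 1.96, 2.52 and 1.41 nRPKM (1.98 ± 0.451, n = 4). Usp18 (Entrez 24110), which removes Isg15 from proteins and blocks the type I receptor, had 0.969, 0.159, 0.728 and 0.520 nRPKM (0.594 ± 0.343) from 35, 5, 27 and 15 reads. Its extremes were those of Isg15, Ifit2 and Oasl1, with the top in library 1 and the bottom in library 2. Socs1 (Entrez 12703), the closest relative of Socs3 and the main brake on interferon gamma signalling, had 0.322, 0.416, 0.235 and 0.101 nRPKM (0.268 ± 0.134) from 25 reads over the 4 libraries. The libraries differed in which of Usp18 and Socs1 was higher, since Socs1 was above Usp18 in library 2 and below it in the others.

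The spread of each gene between the libraries was tested over the 13156 genes with enough reads in every library. The test used edgeR's quasi-likelihood dispersion with Benjamini-Hochberg adjustment over all of them. That test called 2 genes (0.0152%), Xist and Tsix. Of the 46 genes, 32 had enough reads in every library to be tested and 0 were called, with the smallest edgeR adjusted p at 0.767. At an unadjusted p below 0.05 there were 3 of the 32, namely Ifitm3, Ifit3 and Ifitm2 (edgeR, adjusted p = 0.767, adjusted p = 0.823 and adjusted p = 0.836), against 675 of all genes. DESeq2 marked 0 of the same 32 as dispersion outliers. The 14 genes that were not tested include Rsad2, Ifit1, Isg15, Oasl1, Mx2 and Usp18. These are most of the genes with the clearest excess in library 1. The filter asks for reads in every library, so it drops genes that are high in 1 library but low in another. Rsad2 was left out at 5 to 115 reads per library and Ifit1 at 9 to 75, so the count of 0 does not cover them. With no filter on low counts all 46 were tested, and 1, Rsad2, was called (edgeR, adjusted p = 0.0210), while Ifit1 was not (edgeR, unadjusted p = 0.00329, adjusted p = 0.281). That setting called 66 of 20579 genes. In simulated counts of the same 13156 genes, the test recovered 38% of genes changed 4-fold in a single library and 88% of those changed 8-fold. Differences below about 4-fold were thus mostly out of its reach. Every simulated gene lay on the dispersion trend, whereas real genes scatter around it. Recovery in the real counts can therefore be lower than these shares.

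Most of these genes nevertheless varied by more than counting error. A chi-square test of the reads over the 4 libraries, adjusted over all genes tested, was passed by 80.5% of all genes and by 26 of the 32 tested here (81.3%), a share near the background. The 6 whose spread did not exceed counting error were Mb21d1, Irf1, Irf7, Irf9, Rtp4 and Irgm1. The median SD of log2(nRPKM + 1) over the expressed genes of the 46 was 0.22, close to the 0.24 of all expressed genes.

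Other genes of the same pathway, 124 in a list of known members, are given here by role. Of these, 64 (51.6%) were at or above 1 nRPKM. In the test of spread beyond the trend, 77 were tested and 0 were called by edgeR (4 at an unadjusted p below 0.05, smallest adjusted p = 0.572), and 63 of 77 (81.8%) varied beyond counting error. Of 19 other sensors and nucleases, 11 were expressed, with Dhx9, a nuclear RNA helicase, at 26.7 ± 10.4 nRPKM (n = 4), Samhd1, which degrades the nucleotides that viruses need, at 16.4 ± 1.34, and Rnaseh2c, a subunit of the enzyme that removes RNA from DNA, at 13.1 ± 3.45. Of 15 other signalling genes, 10 were expressed, led by Irak1 (15.9 ± 1.58), a kinase of the Toll-like receptors, Tbk1 (12.4 ± 1.75), the kinase that activates Irf3, and Traf6 (10.3 ± 1.65), a ubiquitin ligase. Of 8 other regulatory factors, 4 were expressed, with Irf2bp2, a corepressor that binds Irf2, at 43.2 ± 7.77 and Irf2bpl at 2.65 ± 0.362. All 8 other negative regulators were expressed, the highest being Socs2 (20.6 ± 3.03), Pias1 (14.5 ± 1.46) and Ptpn11 (9.96 ± 1.86). Some of these levels are less certain. Opposite-strand gene models cover 24.8% of the exon bases of Rnaseh2c and 20.5% of those of Irf2bp2, and 18.4% of the 50-base words of Socs2 occur in another gene.

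Among 48 other induced genes, 25 were expressed. The highest were Ifi30, a lysosomal reductase that prepares antigens, at 57.6 ± 11.1 nRPKM (n = 4), Shisa5 at 42.6 ± 13.4 and Lgals3bp, a secreted glycoprotein, at 42.2 ± 12.5. Of the 25 expressed ones, 13 had their highest value in library 3, against 24.5% of all expressed genes, and 5 had it in library 1. The immunoproteasome subunits Psmb8 (3.81, 4.51, 9.68 and 6.67 nRPKM) and Psmb9 (3.90, 3.07, 11.4 and 3.88 nRPKM), picked after their values were seen, were highest in library 3. Cxcl10, a chemokine that attracts T cells, likewise picked afterwards, had 3.28, 0.636, 1.84 and 0.924 nRPKM and so had the same extremes as Usp18, library 1 at the top and library 2 at the bottom.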

How the data were processed

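Polyadenylated RNA of 4 libraries was measured. The authors deposited, per library, a count of uniquely aligning reads per gene and a size-factor-adjusted RPKM (nRPKM), per the file headers. The processing notes name GSNAP and mm9; versions, annotation and strand use: not given in the sources used here. By the values themselves, nRPKM equals the count times a library factor over a gene length. Symbols came from a RefSeq table of GRCm38.p6, used for names and promoters. The members and lists were chosen with earlier results of these data known. The spread test used edgeR 4.0.16 (R 4.3.3) on the read counts, with an intercept only, TMM scaling and filterByExpr; a chi-square test of the same counts was set against Poisson error. Both were adjusted by Benjamini-Hochberg, at 0.05, and DESeq2 1.42.0 was an alternative. Simulated counts for 13156 genes were all set on the dispersion trend. In them, edgeR's test recovered 38% of 4-fold changes in 1 library, 88% of 8-fold and 100% of 16-fold ones. It called 0 unchanged genes. Real genes scatter around the trend, so these shares can overstate recovery in the real counts. Gene pairs were compared on log2(nRPKM + 1) by an exact two-sided permutation of signs over the libraries. The log scale understates differences of low genes. Total counts were 12133251, 12987938, 12928901 and 13591876. A count of 0 allows up to 3 reads (0.221 to 0.247 CPM), which covers counting error only. Libraries were not duplicates: chi-square over degrees of freedom was 31.0 to 89.0 between them. Mitochondrial ribosomal RNA took 19.6% to 38.9% of the counts. Library values are given for all members outside the antiviral role, for the 8 highest antiviral genes and for the 3 expressed members with the largest SD, and of other pathway genes the 3 highest per role are named; other genes were picked once their values were known, and a few genes are not reported here. Shared sequence is the percent of 50-base words of a gene's longest coding GRCm38 transcript found in another gene.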

Additional observations from a re-analysis of the deposited data

Results flagged for a closer look

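A value that lies far from the other 3 libraries, by the gap to its nearest neighbour over the whole range, was found for 8 of 66 named genes and for 5 of the 46 members (10.9%), against 14.1% of all genes with a read. The 14.1% includes genes with reads in a single library, which this rule always marks, whereas 45 of the 46 members had reads in every library. The 2 shares are therefore not like for like. Chance alone gives about 1 in 20 groups of normally distributed values. Among the members, Rsad2 (1.49 nRPKM) and Ifit1 (1.39) were far above the rest in library 1, Irf1 was slightly low there (2.55, with the others from 2.83 to 2.89), Tmem173 was high in library 2 (3.99) and Dhx58 in library 3 (0.495, from 25 reads). Of the other pathway genes, Irf2bpl was low in library 1 (2.11). Ifnl2 (0.0843 in library 1) and Ifne (0.0848 in library 2) each rest on 1 read.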

How the results depend on the processing

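No paired analysis was possible because there is a single group and the labels carry no replicate numbers. Among alternative values of the main results, 61 kept their direction or, for counts, came within 1.5 times the reported one, 7 moved and 1 turned. Part of the 61 was fixed in advance, since a pair with the same sign in all 4 libraries keeps it with any library left out. Values that kept their direction could still differ: Irf3 minus Irf7 was 3.61 with a pseudocount of 0.1, and as log2(CPM + 1) Mavs minus Tmem173 was 1.47 and Ddx58 minus Ifih1 was 0.12. Ifnar1 minus Ifnar2 turned to 0.60 as log2(CPM + 1), which leaves out gene length; the other 4 pairs kept their sign there. Genes called for spread beyond the trend numbered 2, but 66 with no filter on low counts, 62 as DESeq2 dispersion outliers and 0 to 6 with a library left out (6 without library 1, 0 without library 2 or library 3, where 640 and 619 genes had an unadjusted p below 0.05 by edgeR). Members called numbered 0, but 1 with no filter. The median member level of 2.30 nRPKM became 2.71 over members with a mean of at least 0.1, and 2.09 to 2.46 with a library left out. With a library left out, the number of members at or above 1 nRPKM was 25 in each case. These 25 were each at or above 1 in every library, so the number could not fall. Over all 4 libraries, 34 had a mean of at least 0.5. The means of single members with a library left out lay within 1 SD of the mean over 4. Any 4 values give this outcome, so it does not show that the means are stable. The main filter left 14 members untested for spread, because they had too few reads in at least 1 library.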
